A study of Mus musculus with 12 samples.

Results

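The integrated stress response and the unfolded protein response were followed in cultured mouse oligodendrocyte precursor cells (OPCs) through 10 genes, Atf4, Ddit3, Hspa5, Xbp1, Trib3, Chac1, Asns, Sesn2, Herpud1 and Atf6. They were picked by symbol from the 30077 genes that carry 1 symbol among the 65535 transcript clusters in the table used here, from Clariom D arrays. A transcript cluster is a set of probes summarized as 1 value. Some clusters carry several symbols or none, and each of the 10 genes had 1 cluster. OPCs exposed to 3 kinds of microglial extracellular vesicles (EVs) were compared with OPCs given medium alone (CTRL), to learn how EVs from microglia in different reactive states act on OPCs as they begin to differentiate. Each of the 4 groups had 3 arrays, 12 in all.

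All OPCs came from brains of C57Bl/6 pups at postnatal day 2 and were sorted magnetically on CD140a, the PDGF receptor alpha that marks these precursors. They proliferated for 48 h with PDGF-AA and FGF2, were then moved to differentiation medium with the thyroid hormone T3, and were lysed at 24 h of differentiation (the deposited design counts these hours from treatment). EVs were added about 4 h after the move, from 2 donor microglia for each OPC. The donors were primary mouse microglia, all given ATP to release EVs. They had been kept with the cytokines IL-1β, TNF and IFN-γ (i-EVs), with IL4 (IL4-EVs), or with the same 3 cytokines and mesenchymal stem cells on a separate support (MSC-EVs). CTRL received medium without EVs, so against CTRL the presence of EVs and the state of their donor microglia cannot be told apart. The methods call the 3 samples of a group independent replicates and do not say whether they came from separate litters, so the p-values speak of the spread among these samples.

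The integrated stress response starts when a kinase such as PERK or GCN2 phosphorylates the initiation factor eIF2α. Most translation then slows while the mRNA of the transcription factor ATF4 is translated more, and ATF4 turns on genes for amino acid supply and, with CHOP, for cell death. The unfolded protein response joins PERK with 2 other sensors in the membrane of the endoplasmic reticulum (ER): ATF6, which is cut to release a transcription factor, and IRE1, which splices the Xbp1 mRNA. Oligodendrocytes pass large amounts of membrane protein and lipid through the ER when they make myelin, and they are known to be sensitive to disturbance of either pathway. Levels below are log2 values after RMA normalization, and a difference of log2 levels is a log2 fold change. These arrays measure mRNA: neither eIF2α phosphorylation, ATF4 protein, Xbp1 splicing nor ATF6 cleavage is read by them.

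Markers of the labelled cells were present. Of 10 measured genes of the oligodendrocyte lineage, Olig2 averaged 19.09, Ptprz1 17.61 and the myelin gene Mbp 5.59, while the cluster of the sort marker Pdgfra is shared with other symbols and was not used here. By limma, Ptprz1 rose by 0.31 under IL4-EVs and under MSC-EVs (adjusted p = 0.0149 and 0.00778). Cspg4 rose by 0.79 under MSC-EVs (adjusted p = 0.0112), and the others did not pass. Under MSC-EVs the lineage genes Enpp6 (SD 2.56) and Bmp4 (SD 2.16) varied widely among the 3 arrays. The 9 measured microglia markers had means of 3.18 to 3.88, which is near the array medians of 3.53 to 3.65, and their summed level ranged from 6.46 to 6.67 over all arrays. None of these 9 passed the test with any EVs. Summed astrocyte markers (6 genes) ranged from 10.57 to 10.66 in CTRL, 10.38 to 10.39 under i-EVs, 10.18 to 10.19 under IL4-EVs and 10.14 to 10.6 under MSC-EVs. Summed neuron markers (8 genes) ranged from 9.26 to 9.45, 9.08 to 9.3, 8.91 to 9.08 and 8.98 to 9.12 in the same order. The astrocyte sum is mostly Aldoc (mean 10.07, then Slc1a2 at 6.85), and the neuron sum mostly Snap25 (8.11) and Tubb3 (7.58). Under IL4-EVs Aldoc and Slc1a3 fell, and under MSC-EVs Aldoc fell and Slc1a2 rose. Of the neuron markers only Snap25 passed, a fall with both. The part of these other cell types in the results was not tested. The third array of MSC-EVs stood apart, with the proliferation gene Mki67 at 16.69 there and at 14.28 to 14.92 on the other arrays. The 11 measured cell cycle genes had a median difference of -0.532 under i-EVs, -0.695 under IL4-EVs and -0.228 under MSC-EVs, and limma called none of them. Without that array 9, 10 and 10 of the 11 fell, and Mki67 rose under IL4-EVs and MSC-EVs. The part of the cell cycle in the results was not tested. In these bulk samples, fewer cells of a type and less RNA per cell cannot be told apart.

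Under IL4-EVs 3 of the 10 genes fell (Atf4, Asns and Herpud1) and under MSC-EVs 4 fell (these 3 and Hspa5), each by 1.24 to 1.41 fold, while none rose. Under i-EVs none of the 10 passed the test by limma, though 3 (Hspa5, Asns and Herpud1) had an unadjusted p under 0.05, as did 13.3% of all clusters. A gene was called when its limma p-value, adjusted over all 65535 clusters, was under 0.05. The 3 comparisons share the same CTRL arrays, so they are not separate evidence. The counts lean on single arrays. Under IL4-EVs 0 of the 10 genes were called without the first CTRL array and 0 without the second IL4-EVs array (adjusted p = 0.0539 for Asns), and only Asns was called when the array left out was CTRL 3 or IL4-EVs 3. Under MSC-EVs 2 (Asns and Herpud1) were called without the first CTRL array.

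These counts need the background of all clusters. Falls were called for 0.378% of all clusters under i-EVs, 4.13% under IL4-EVs and 6.75% under MSC-EVs. Most clusters are dim, however, and 8 of the 10 genes (all but Trib3 and Chac1) had a mean of at least 6. Among the 9477 clusters with 1 symbol that were this bright, falls were called for 2.11% under i-EVs, 21.1% under IL4-EVs and 29.9% under MSC-EVs, and rises for 5.54% under IL4-EVs and 10.1% under MSC-EVs. Of the 8 bright members 3 fell under IL4-EVs (37.5%) and 4 under MSC-EVs (50%), which are small counts to read against these shares. The median change of the 10 genes was -0.054 under i-EVs, -0.0885 under IL4-EVs and -0.223 under MSC-EVs, beside -0.0959, -0.126 and -0.142 over the bright clusters.

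**Figure D1:**
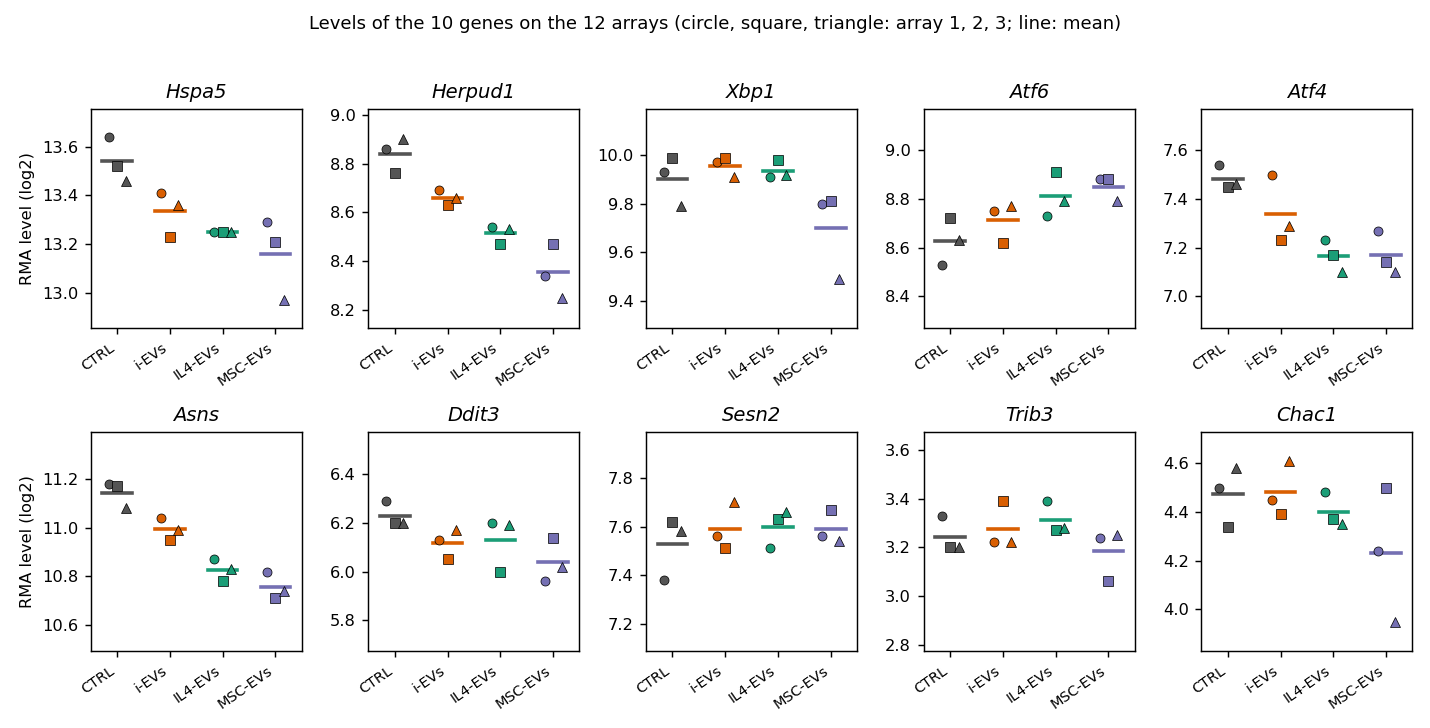
Level of each of the 10 genes on every array, as RMA values on the log2 scale (vertical axis, the same span of 0.9 in each panel), by group (horizontal axis). Circles, squares and triangles are arrays 1, 2 and 3 of a group and lines are group means; Hspa5, Herpud1, Asns and Atf4 have their highest group mean in CTRL, Atf6 has its lowest there, and the third MSC-EVs array is lowest for 5 genes.

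Herpud1, an ER membrane protein that helps to clear misfolded proteins by ER-associated degradation, had the largest called change of the 10 genes. Its level was 8.86, 8.76 and 8.9 on the CTRL arrays, 8.69, 8.63 and 8.66 under i-EVs, 8.54, 8.47 and 8.53 under IL4-EVs, and 8.34, 8.47 and 8.25 under MSC-EVs. Every EV array lay below every CTRL array, and the group means went down from CTRL over i-EVs and IL4-EVs to MSC-EVs. Under MSC-EVs it fell by 0.49 on the log2 scale (SE 0.0688, adjusted p = 0.00113), from 8.84 ± 0.0702 to 8.35 ± 0.109 (SD, n = 3). On the linear scale its intensity fell by 28.8%. Under IL4-EVs it fell by 0.33 (SE 0.0688, adjusted p = 0.0173), and under i-EVs the difference was -0.18 (adjusted p = 0.259). The call under IL4-EVs was lost after another quantile normalization (-0.22, adjusted p = 0.162) and after cyclic loess (-0.23, adjusted p = 0.0791). Leaving out 1 array at a time gave it an adjusted p of 0.00895 to 0.0814.

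The start of the Herpud1 gene is shown because it holds the recognition letters of both pathways. In the 120 bases before its RefSeq start (GRCm38.p6, chr8:94386309-94386428, plus strand), the capitals mark a match to the CARE element TGATGNAA, bound by ATF4 with C/EBP partners, read on the minus strand at positions -112 to -105, and a match to ERSE-II (ATTGG and CCACG, 1 base apart), bound by ATF6 and XBP1, at -52 to -42.
Herpud1: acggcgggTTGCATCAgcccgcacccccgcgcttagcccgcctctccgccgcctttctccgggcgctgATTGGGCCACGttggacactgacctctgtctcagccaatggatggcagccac
Both strands of 32851 mouse promoters, from 250 bases before to 50 after the start, were searched for these letters. CARE occurred in 3.97% of them and ERSE-II in 0.0365%.

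Hspa5 encodes BiP, the main chaperone of the ER lumen, which binds unfolded proteins and holds the ER sensors inactive. Its level was 13.64, 13.52 and 13.46 in CTRL, 13.41, 13.23 and 13.36 under i-EVs, 13.25 on each of the 3 IL4-EVs arrays, and 13.29, 13.21 and 12.97 under MSC-EVs. No EV array reached the lowest CTRL array. Under MSC-EVs Hspa5 fell by 0.38 (SE 0.087, adjusted p = 0.013). The difference was -0.29 under IL4-EVs (adjusted p = 0.082) and -0.21 under i-EVs (adjusted p = 0.318), neither of which passed. That under IL4-EVs passed by limma with dim clusters left out (adjusted p = 0.0236), in a 2-group fit (0.0322) and with array weights (0.0161). The fall under MSC-EVs was -0.29 without the third MSC-EVs array (adjusted p = 0.0342) and was not called without the first CTRL array, the highest of all 12 (-0.33, adjusted p = 0.0635). Nor was it called after another quantile normalization (-0.20, adjusted p = 0.21), after cyclic loess (-0.19, adjusted p = 0.11) or in a fit of these 2 groups alone (adjusted p = 0.0688).

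Of the 9 genes whose start is in the RefSeq table (all but Atf6), Hspa5 was the only one with a match to the ER stress element ERSE, which ATF6 binds together with NF-Y. ERSE was searched as CCAAT and CCACG 9 bases apart and occurred in 0.119% of the promoters. The 120 bases before the start (GRCm38.p6, chr2:34771970-34772089, plus strand) carry the match in capitals, at -65 to -47.
Hspa5: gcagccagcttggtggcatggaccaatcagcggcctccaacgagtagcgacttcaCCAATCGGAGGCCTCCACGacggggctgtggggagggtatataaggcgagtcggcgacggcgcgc

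Atf6 and Xbp1, the transcription factors of these ER branches, did not pass the test with any EVs. Atf6 stood higher on most EV arrays. Its level was 8.53, 8.72 and 8.63 in CTRL, 8.75, 8.62 and 8.77 under i-EVs, 8.73, 8.91 and 8.79 under IL4-EVs, and 8.88, 8.88 and 8.79 under MSC-EVs. The IL4-EVs and MSC-EVs arrays all lay above CTRL, on average by 0.18 (SE 0.0748, adjusted p = 0.24) and 0.22 (adjusted p = 0.0798). Rescaling the arrays among themselves brought the difference under MSC-EVs past the threshold: Atf6 rose by 0.31 after cyclic loess (adjusted p = 0.00853) and by 0.27 after another quantile normalization (adjusted p = 0.0308). Xbp1 was 9.93, 9.99 and 9.79 in CTRL, 9.97, 9.99 and 9.91 under i-EVs, 9.91, 9.98 and 9.92 under IL4-EVs, and 9.8, 9.81 and 9.49 under MSC-EVs. Its difference under MSC-EVs was -0.20 (SE 0.0883, adjusted p = 0.194), and -0.10 without the third array. Neither spliced nor unspliced Xbp1 mRNA can be read from a gene-level cluster.

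Atf4, the transcription factor at the centre of the integrated stress response, was 7.54, 7.45 and 7.46 in CTRL, 7.5, 7.23 and 7.29 under i-EVs, 7.23, 7.17 and 7.1 under IL4-EVs, and 7.27, 7.14 and 7.1 under MSC-EVs. The first i-EVs array lay within the CTRL range, and the arrays of IL4-EVs and MSC-EVs all lay below it. Atf4 fell by 0.31 under IL4-EVs (SE 0.0809, adjusted p = 0.0433) and by 0.31 under MSC-EVs (adjusted p = 0.0245). Under i-EVs the difference was -0.15 (adjusted p = 0.493). After cyclic loess neither fall passed (adjusted p = 0.113 for IL4-EVs and 0.0598 for MSC-EVs). After another quantile normalization that under IL4-EVs did not pass (adjusted p = 0.0808). Either call could also be lost with 1 array. Leaving out 1 array at a time gave an adjusted p of 0.0226 to 0.166 for IL4-EVs and 0.0122 to 0.0989 for MSC-EVs, where the value without the third MSC-EVs array was 0.0751.

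Asns, asparagine synthetase, is a classic target that ATF4 induces when amino acids run short. Its level was 11.18, 11.17 and 11.08 in CTRL, 11.04, 10.95 and 10.99 under i-EVs, 10.87, 10.78 and 10.83 under IL4-EVs, and 10.82, 10.71 and 10.74 under MSC-EVs. All EV arrays lay below CTRL, and all IL4-EVs and MSC-EVs arrays lay below i-EVs. Asns fell by 0.32 under IL4-EVs (SE 0.0603, adjusted p = 0.0101) and by 0.39 under MSC-EVs (adjusted p = 0.00192), and differed by -0.15 under i-EVs (adjusted p = 0.292). The third MSC-EVs array was not its lowest, and the fall without it was -0.38 (adjusted p = 0.00537). Under IL4-EVs its call was lost after cyclic loess (-0.18, adjusted p = 0.0977).

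Asns is shown because its CARE match lies close to the start and on the plus strand, at -23 to -16. The 120 bases before the start lie at GRCm38.p6 chr6:7693210-7693329, minus strand, and the capitals mark the match.
Asns: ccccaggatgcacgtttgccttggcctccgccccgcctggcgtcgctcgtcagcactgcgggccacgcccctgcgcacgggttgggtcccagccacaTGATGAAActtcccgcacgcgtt

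The 4 other genes downstream of ATF4 did not pass the test with any EVs when all arrays were used. Ddit3 encodes CHOP, a transcription factor that promotes cell death under lasting stress. It was 6.29, 6.2 and 6.2 in CTRL, 6.13, 6.05 and 6.17 under i-EVs, 6.2, 6 and 6.19 under IL4-EVs, and 5.96, 6.14 and 6.02 under MSC-EVs. The MSC-EVs arrays lay below CTRL, with a difference of -0.19 (SE 0.0757, adjusted p = 0.143), while those of IL4-EVs overlapped CTRL.

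Chac1, a glutathione-degrading enzyme, Trib3, a pseudokinase that binds ATF4, and Sesn2, a leucine sensor that restrains mTORC1, completed the targets. Chac1 was 4.5, 4.34 and 4.58 in CTRL, 4.45, 4.39 and 4.61 under i-EVs, 4.48, 4.37 and 4.35 under IL4-EVs, and 4.24, 4.5 and 3.95 under MSC-EVs. The third MSC-EVs array was its lowest, and its difference was -0.24 with that array (adjusted p = 0.267) and -0.11 without it (adjusted p = 0.672). Without the second MSC-EVs array, the highest of that group, it was -0.38 and passed (adjusted p = 0.047). Trib3 ranged from 3.06 to 3.39 over the 12 arrays, below the median of each array, so that little could be measured of it. Sesn2 ranged from 7.38 to 7.7 and had differences of 0.07 under i-EVs, 0.08 under IL4-EVs and 0.07 under MSC-EVs (95% interval -0.12 to 0.25 for MSC-EVs). Chac1 and Trib3 hold a CARE match too. That of Chac1, at -193 to -186 on the minus strand, is shown in capitals within 30 bases (GRCm38.p6, chr2:119351038-119351067, plus strand), for comparison with Asns and Herpud1, where the motif also stands.
Chac1: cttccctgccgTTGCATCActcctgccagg
Neither Sesn2, Ddit3 nor Atf4 matched any of the 4 motifs searched, of which the UPR element TGACGTGG occurred in 0.676% of promoters and in none of the 9.

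**Figure D2:**
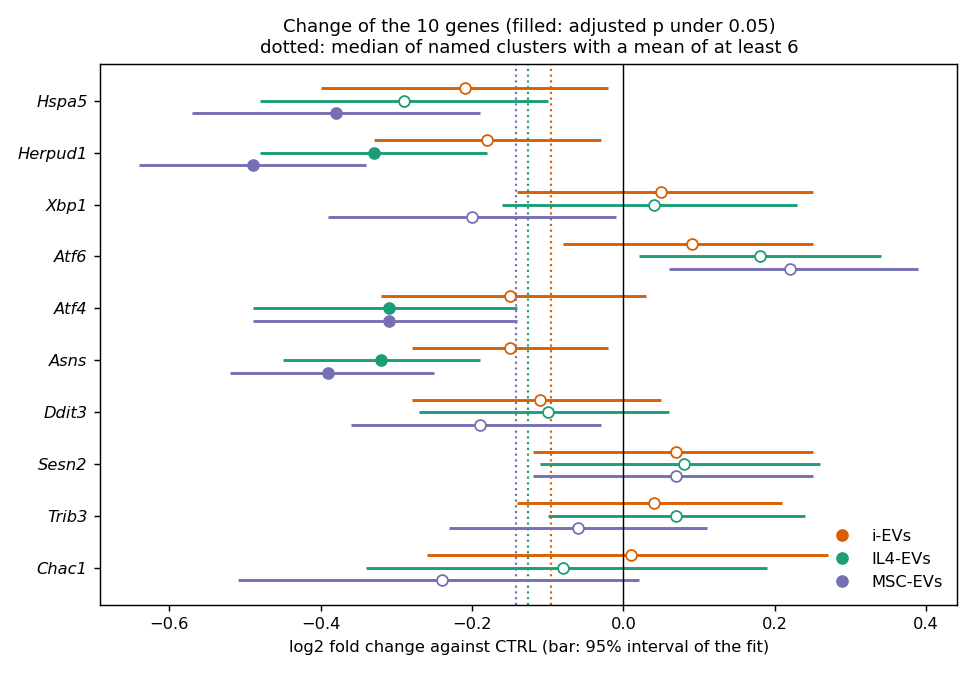
Log2 fold change of each gene against CTRL (horizontal axis) with the 95% interval of the limma fit, for the 3 EV types by colour; filled points have an adjusted p under 0.05 and dotted lines give the median change of the bright named clusters (-0.0959, -0.126 and -0.142). Herpud1 under MSC-EVs lies farthest to the left at -0.49, the intervals of Sesn2 all span 0, and those of Atf6 under IL4-EVs and MSC-EVs lie above 0 without passing the adjusted test.

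Many bright genes had arrays that did not overlap between groups. The 3 EV arrays all lay below the 3 CTRL arrays for 4 of the 10 genes under i-EVs, 4 under IL4-EVs and 5 under MSC-EVs. Over the bright clusters the same held for 36.3%, 48.7% and 42.1%, so that such a lack of overlap was common at large.

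The EV types were also compared with each other, and limma called none of the 10 genes in any of these 3 comparisons. For MSC-EVs against i-EVs, Herpud1 differed by -0.31 (95% interval -0.46 to -0.16, adjusted p = 0.0528), Asns by -0.24 (-0.37 to -0.1, adjusted p = 0.0785) and Xbp1 by -0.25 (-0.45 to -0.06, adjusted p = 0.175). An unadjusted p under 0.05 was reached by these 3 genes, by Asns for IL4-EVs against i-EVs, and by Xbp1 and Herpud1 for MSC-EVs against IL4-EVs. Over all clusters, the test called 0% for IL4-EVs against i-EVs (7.56% at an unadjusted p under 0.05), 1.45% for MSC-EVs against i-EVs (16.3%) and 0.00153% for MSC-EVs against IL4-EVs (8.91%). Atf4 had the same mean, 7.17, under IL4-EVs and MSC-EVs, with an interval of the difference from -0.18 to 0.18. With the deposited scaling and all clusters, that a gene fell under IL4-EVs or MSC-EVs and did not pass under i-EVs is thus not shown to be a difference between EVs. In other settings calls appeared for MSC-EVs against i-EVs: Herpud1 after cyclic loess, and Asns and Herpud1 with dim clusters left out.

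**Figure D3:**
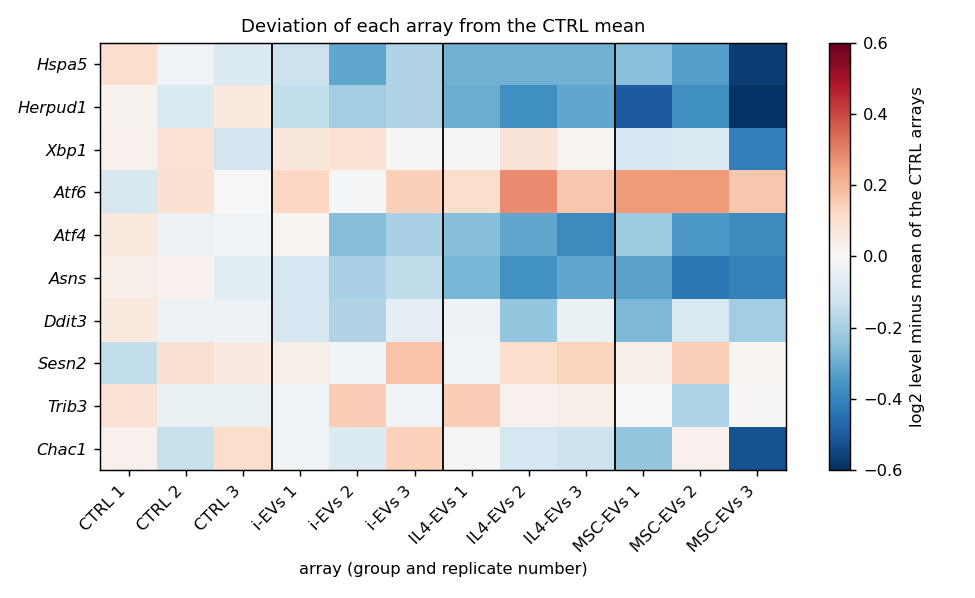
Log2 level on each array (columns) minus the mean of the 3 CTRL arrays, for each of the 10 genes (rows); blue is below and red above CTRL. The third MSC-EVs array holds the lowest value of 5 genes (Hspa5, Herpud1, Xbp1, Atf4 and Chac1), and the first CTRL array the highest value of 4.

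The 10 genes did not move as a unit over the arrays. Pearson's r with Atf4 over the 12 arrays, which includes the differences between groups, was 0.915 for Asns, 0.891 for Hspa5 and 0.82 for Herpud1, but -0.0017 for Trib3, -0.445 for Sesn2 and -0.643 for Atf6. After removal of the group means, Asns (0.697) and Hspa5 (0.693) still followed Atf4 from array to array, whereas Herpud1 (0.257) did not follow it as closely. These r describe 12 arrays that share their normalization and are given without a test. The genes closest to Atf4 were sought among 7338 bright genes with 1 symbol, leaving out Gm and Rik names. They were Polr2g, a subunit of RNA polymerase II (0.979), Atp5c1, a subunit of ATP synthase (0.955), and Psme1, a proteasome activator (0.953). Next came Lancl1, a glutathione-binding protein (0.953), and Capzb, an actin-capping subunit (0.948). Asns was number 71, Hspa5 238 and Herpud1 957 in this order. Of the 5 closest genes, Polr2g fell by 0.43 under IL4-EVs and by 0.45 under MSC-EVs (adjusted p = 0.0212 and 0.00909).

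Other genes of the pathways were taken from 5 lists. Upstream, 13 genes of the eIF2α kinases, their counteracting phosphatase subunits and eIF2B, the exchange factor that phosphorylated eIF2α blocks, were measured. Under IL4-EVs 1 of them fell and under MSC-EVs 3 fell, none rose, and the list median was -0.113 and -0.138. Of the 8 bright genes among them 1 and 2 fell (12.5% and 25%), no larger a share than over all bright clusters. The falls were in eIF2B subunits. Eif2b2 was 7.57 ± 0.0476 in CTRL, 7.32 ± 0.15 under i-EVs, 7.05 ± 0.0929 under IL4-EVs and 6.82 ± 0.0908 under MSC-EVs, and fell by 0.52 and 0.75 with the latter 2 (SE 0.0857, adjusted p = 0.00516 and 0.000492). Under MSC-EVs Eif2b4 and Eif2b5 each fell by 0.28 (adjusted p = 0.0216 and 0.0365). The call of Eif2b5 was lost after another quantile normalization, after cyclic loess and without the third MSC-EVs array, and both calls were lost after centring on the bright named clusters. Eif2ak3, which encodes PERK, was 8.9 ± 0.0772 in CTRL, 9.13 ± 0.125 under i-EVs, 9.17 ± 0.0787 under IL4-EVs and 9.16 ± 0.0878 under MSC-EVs. Its differences of 0.27 and 0.26 missed the threshold (adjusted p = 0.0856 and 0.0567), and after another quantile normalization or cyclic loess it rose with both.

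With all arrays and the deposited scaling, none of the 8 measured genes of the ER sensors and of the proteases that release ATF6 passed the limma test with any EVs. Ern1, which encodes IRE1, differed by 0.06 under i-EVs, 0.16 under IL4-EVs and 0.15 under MSC-EVs (SE 0.0723). After centring on the bright named clusters it rose under IL4-EVs and MSC-EVs. Creb3l2, named after its values were seen, differed by 0.44 under IL4-EVs and 0.13 under MSC-EVs (SE 0.233). Without the third MSC-EVs array it rose with both. Creb3, a relative of ATF6 in the ER membrane, differed by -0.33 under MSC-EVs (SE 0.101, adjusted p = 0.0575), and Atf6b by -0.28 (SE 0.139, adjusted p = 0.255).

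Of 28 further targets of ATF4 and CHOP, 2 fell and 1 rose under IL4-EVs, and 3 fell and 2 rose under MSC-EVs, with list medians of -0.0648 and -0.0836. Of the 16 bright genes among them 1 and 2 fell when all arrays were used, which is a lower share than the 21.1% and 29.9% of all bright clusters. The enzymes of serine synthesis Psat1 and Psph fell with both: Psat1 by 0.39 and 0.36 (SE 0.0659, adjusted p = 0.00553 and 0.00455), Psph by 0.45 and 0.32 (SE 0.0848, adjusted p = 0.0102 and 0.0264). The call of Psat1 was lost with both after another quantile normalization, and under MSC-EVs after cyclic loess. That of Psph was lost under MSC-EVs after centring on the bright named clusters. Phgdh, also of serine synthesis and named after its values were seen, did not pass (-0.58 and -0.34, adjusted p = 0.0521 and 0.209). It fell with both without the third MSC-EVs array. The 2 rises were in amino acid transporters. Slc38a2, which carries neutral amino acids, rose from 14.31 ± 0.0537 in CTRL to 14.7 ± 0.068 under IL4-EVs and 14.7 ± 0.0662 under MSC-EVs (adjusted p = 0.00684 and 0.00373), and Slc7a1, which carries arginine and lysine, rose by 0.34 under MSC-EVs (SE 0.0736, adjusted p = 0.00976). Other carriers of the list did not pass. Among them, named after their values were seen, Slc3a2 differed by -0.31 and -0.24, and Slc7a5 by 0.16 and 0.51 (adjusted p = 0.0888 under MSC-EVs). Slc7a5 rose under MSC-EVs after another quantile normalization, cyclic loess or centring on the bright named clusters. Slc3a2 fell with both EVs without the third MSC-EVs array. Without the third MSC-EVs array, 6 fell and 1 rose under IL4-EVs, and 6 fell and 2 rose under MSC-EVs. All of these falls under IL4-EVs but Psph were in bright genes, beside falls in 28.2% of bright clusters, so the lower share was not kept. Under MSC-EVs all but Cth and Psph were, beside 29.9%. After cyclic loess 2 fell and 3 rose, and 2 fell and 4 rose. The third fall under MSC-EVs was in Ddit4, a stress-induced inhibitor of mTORC1 named here after its values were seen (-0.93, SE 0.204, adjusted p = 0.011). Its MSC-EVs arrays varied widely (SD 0.565), and it differed by -0.47 under i-EVs and -0.59 under IL4-EVs (adjusted p = 0.341 and 0.143). Without the third MSC-EVs array Ddit4 fell with all 3 EV types. When the second i-EVs array was left out as well, the fall under i-EVs was not called.

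Of 18 measured ER chaperones and folding enzymes, 1 fell under i-EVs, 5 under IL4-EVs and 8 under MSC-EVs with the deposited scaling, and none rose. Most did not pass. Of the 16 that were bright, 1, 5 and 7 fell (6.25%, 31.2% and 43.8%), beside the 2.11%, 21.1% and 29.9% of bright clusters. The list medians were -0.182, -0.188 and -0.247, beside -0.0959, -0.126 and -0.142 over the bright clusters. P4hb, a disulfide isomerase, was 13.86 ± 0.072 in CTRL, 13.39 ± 0.114 under i-EVs, 13.25 ± 0.0343 under IL4-EVs and 13.08 ± 0.11 under MSC-EVs, and fell by 0.47, 0.61 and 0.78 (SE 0.0783, adjusted p = 0.039, 0.00198 and 0.000335). The prolyl isomerases Fkbp2 and Ppib fell by 0.55 and 0.67 under MSC-EVs (adjusted p = 0.00375 and 0.00317), and the disulfide isomerase Pdia6 by 0.34 under IL4-EVs and 0.29 under MSC-EVs (adjusted p = 0.0116 and 0.0134). The fifth fall under IL4-EVs was in Dnajb9, a BiP co-chaperone named after its values were seen (-0.48, SE 0.125, adjusted p = 0.0437). The count depends on the scaling: after cyclic loess 1 fell under IL4-EVs, and 4 fell and 1 (Hsp90b1) rose under MSC-EVs. The calls of Pdia6 under both EVs and of Dnajb9 under IL4-EVs were lost after another quantile normalization, cyclic loess or centring on the bright named clusters. The call of P4hb under i-EVs was kept after cyclic loess. It was lost after another quantile normalization, after centring on the bright named clusters, and without i-EVs array 2 and MSC-EVs array 3. No bright cluster was called under i-EVs in a fit of the 2 groups or when any CTRL array was left out.

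Among 20 genes of ER-associated degradation and protein translocation, 3 fell and 2 rose under IL4-EVs, and 7 fell and 2 rose under MSC-EVs, with list medians of -0.0983 and -0.132. Of the 15 bright genes among them 3 and 6 fell (20% and 40%), beside 21.1% and 29.9% of all bright clusters. The falls under IL4-EVs were 1 (Selenok) after another quantile normalization and 6 without the second i-EVs array and the third MSC-EVs array, and those under MSC-EVs were 5 after that normalization, after cyclic loess and after centring on the bright named clusters. Ssr2 and Ssr3, subunits of the complex beside the translocation channel, fell by 0.45 and 0.46 under IL4-EVs (adjusted p = 0.00941 and 0.0113) and by 0.6 and 0.54 under MSC-EVs (adjusted p = 0.00112 and 0.00243). Selenok, an ER selenoprotein, fell by 0.58 and 0.57 (adjusted p = 0.00255 and 0.00139). Edem3, which trims mannose from misfolded glycoproteins, rose from 10.07 ± 0.0502 in CTRL to 10.49 ± 0.0932 under IL4-EVs and 10.54 ± 0.105 under MSC-EVs (adjusted p = 0.0121 and 0.00375). Sel1l, a partner of the ubiquitin ligase of this route that was named after its values were seen, rose by 0.32 and 0.35 (adjusted p = 0.0274 and 0.0092). Edem3 and Herpud1, both of the degradation route, thus changed in opposite directions.

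**Figure D4:**
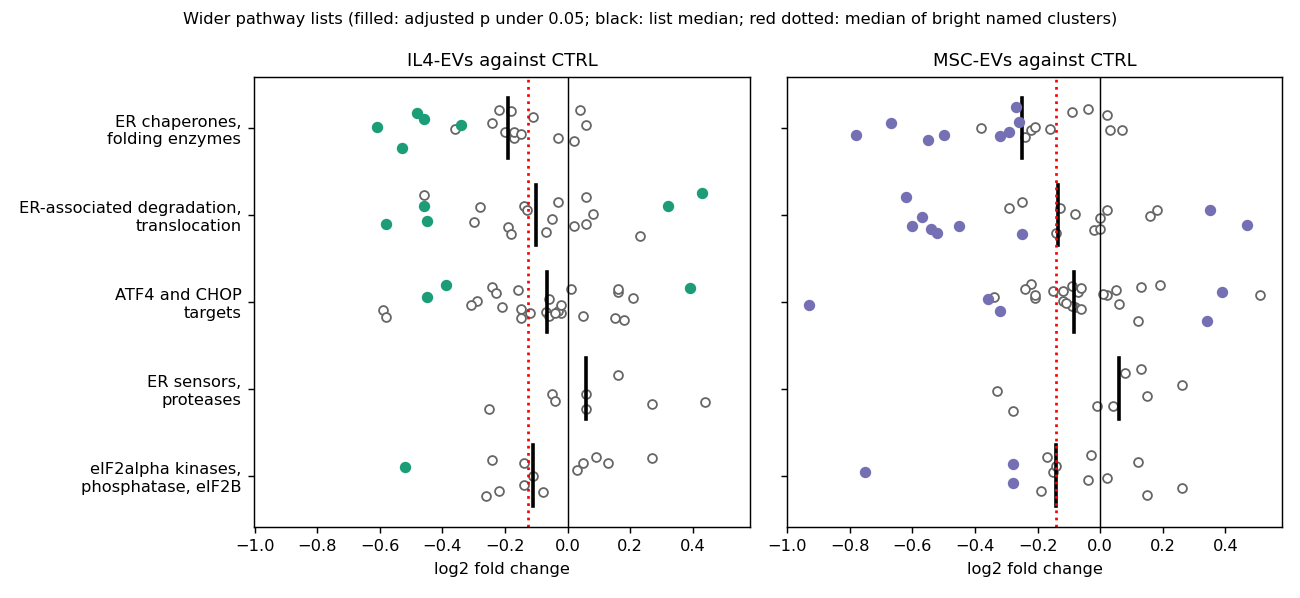
Log2 fold change of every measured gene of the 5 wider lists (points, 1 row per list; Eif2ak3 stands in 2 lists) under IL4-EVs and under MSC-EVs; filled points have an adjusted p under 0.05, black bars are list medians and the red dotted line is the median of the bright named clusters. The chaperones have 5 and 8 filled points, all below 0 with the deposited scaling shown here, while the ATF4 and CHOP targets and the degradation genes have filled points on both sides.

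Genes that share the promoter letters of the members were counted as well, among genes with a mean of at least 6 other than the members. Under i-EVs, 5 of 125 genes with a CARE match fell (4.0%), against 99 of 5801 genes with a promoter in the table (1.71%). Under MSC-EVs, 33 of the 125 genes with a CARE match fell (26.4%) and 16 rose, against 1442 (24.9%) and 665 of the 5801 genes. Under IL4-EVs 27 (21.6%) fell and 11 rose, against 1185 (20.4%) and 398. Of 10 genes with an ERSE match 2 fell under IL4-EVs and 2 under MSC-EVs, and of 7 with ERSE-II 2 and 3 fell. The shares with a CARE match lay close to those of any promoter under IL4-EVs and MSC-EVs, and the few falls under i-EVs allow no comparison.

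**Figure D5:**
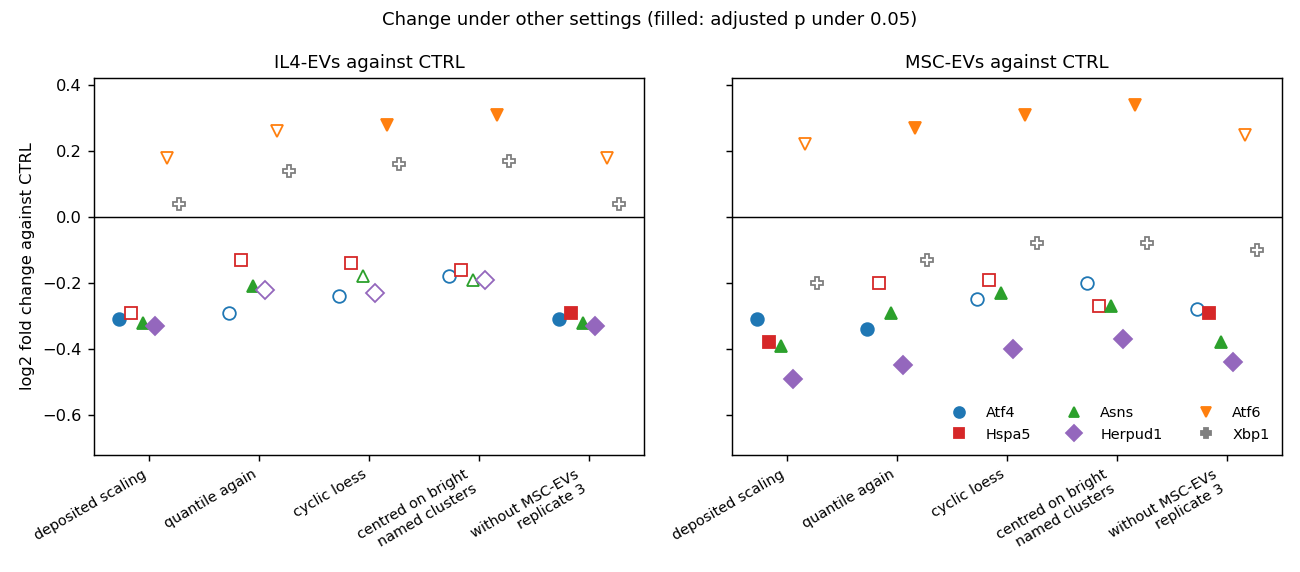
Log2 fold change against CTRL (vertical axis) of 6 of the genes under IL4-EVs and under MSC-EVs, with the deposited scaling, after another quantile normalization, after cyclic loess, after centring on the bright named clusters, and without the third MSC-EVs array; filled points have an adjusted p under 0.05. Herpud1 and Asns stay filled in all 5 settings under MSC-EVs, while Hspa5 is open in the 3 rescaled ones and Atf6 filled in them.

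The arrays' own scaling bears on these values. The median of the bright named clusters was 8.81 to 8.86 on the CTRL arrays and 8.64 to 8.77 on the EV arrays, and its part in the falls was not tested. When each array was centred on that median, Herpud1 still fell by 0.37 and Asns by 0.27 under MSC-EVs, whereas the differences of Atf4 (-0.20) and Hspa5 (-0.27) no longer passed. Under IL4-EVs none of the 3 falls passed after this centring or after cyclic loess. The falls of Herpud1 and Asns under MSC-EVs passed in every setting run except the added fold threshold of 1.5, which no member reached.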

How the data were processed

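RNA of 12 OPC samples was hybridised to Clariom D mouse arrays, 1 per sample. The values that the authors deposited are linear intensity (3.34 to 999968). They had been through RMA: correction for background, quantile normalization of all arrays together and a summary of the perfect-match probes per transcript cluster. TAC is the software given in the methods, and Affymetrix Expression Console that given in the processing notes of the submitters. The table used here ends at 65535 clusters and may be cut there, so genes of a list that were not found may be missing for that reason. No source used here names the genome build behind the array annotation.

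The log2 of each value was taken with no pseudocount. A model fitted by limma 3.58.1 (R 4.3.3) had 1 mean per group, all 12 arrays, 8 residual and 3.46 prior degrees of freedom, and p-values were adjusted by Benjamini-Hochberg within each comparison over 65535 clusters. Calls needed an adjusted p under 0.05 and no minimum fold. For each gene the brightest cluster with 1 symbol was kept. Named genes are the 10 members, up to 4 genes of each wider list with the smallest F-test p, the 5 genes most like Atf4 by Pearson's r, and markers. The members and lists were chosen with earlier results of these data known. The procedure was tested on simulated data. The number of arrays limits the precision. Promoters came from RefSeq (GRCm38.p6), and 9 of the 10 genes were found there. Alternatives were another quantile normalization, cyclic loess, a filter on dim clusters, 2-group fits, other spreads, array weights, a fold threshold of 1.5, a replicate block and leaving out each array. Leaving out 2 arrays together and centring on the bright named clusters were added after seeing the data. Figures were drawn with matplotlib 3.10.9.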

Additional observations from a re-analysis of the deposited data

How the results depend on the processing

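Of 10 genes, the 3 called with IL4-EVs became 1 after another quantile normalization (Asns fell), 1 after cyclic loess (Atf6 rose), 1 after centring on the bright named clusters (Atf6 rose), 0 with a fold of at least 1.5, and 0 to 4 when 1 array was left out (0 without the first CTRL or the second IL4-EVs array, 1 without the third of either). The count with IL4-EVs became 4, with Hspa5 added, when dim clusters were left out, in a fit of the 2 groups and with array weights. The 4 falls with MSC-EVs became 3 and a rise of Atf6 after another quantile normalization, 2 (Asns and Herpud1) and that rise after cyclic loess or centring, 3 in a fit of the 2 groups, 0 with a fold of at least 1.5, and 2 to 4 when 1 array was left out. When dim clusters were left out, a rise of Atf6 joined the 4 falls. With MSC-EVs against i-EVs the count of 0 became 1 after cyclic loess (Herpud1), 2 with dim clusters left out (Asns and Herpud1), and 0 to 1 when 1 array was left out. The counts with i-EVs, with IL4-EVs against i-EVs and with MSC-EVs against IL4-EVs were 0 in every setting run. The falls of Herpud1 and Asns with MSC-EVs passed in every setting but the fold threshold, with an adjusted p of 0.00109 to 0.00749 and 0.00212 to 0.0119 when 1 array was left out. Atf4 lost its call with IL4-EVs after another quantile normalization (adjusted p = 0.0808), without moderation of the spread (0.0635) and with a trended prior (0.0564).

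Direction changed only in differences that had not passed. With i-EVs, Trib3 came to 0 and Chac1 to -0.01 after another quantile normalization, Chac1 to 0 after cyclic loess, and Trib3 to -0.02 without the second i-EVs array, alone or together with the third MSC-EVs array. Leaving out the first CTRL array gave -0.01 for Sesn2 with i-EVs and with MSC-EVs. Chac1 with i-EVs was -0.06 without the second CTRL array and without the third i-EVs array. Xbp1 came to 0 with i-EVs and -0.02 with IL4-EVs without the third CTRL array, and Trib3 with MSC-EVs to 0 without the second MSC-EVs array. Centring gave 0.03 for Ddit3 and 0.06 for Chac1 with IL4-EVs and 0.06 for Trib3 with MSC-EVs. Over all single arrays left out, these differences reached at most 0.08 for Trib3 and 0.11 for Sesn2 under i-EVs, 0.08 for Xbp1 under IL4-EVs and 0.11 for Sesn2 under MSC-EVs, and Trib3 under MSC-EVs was -0.1 at its lowest. The causes were not tested.

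Equal replicate numbers were not taken to pair the arrays. The deviations of 18 same-number pairs correlated at -0.103 to 0.141 over all clusters (3 pairs over 0.1) and at -0.385 to 0.439 over bright named clusters (9 over 0.1, among them all 3 between i-EVs and IL4-EVs, 0.439, 0.265 and 0.211). With the number as a replicate block, 3 genes were called with IL4-EVs and 4 with MSC-EVs, and no call changed. Among bright named clusters the split of falls to rises with IL4-EVs was 21.1% to 5.54%, and 15% to 8.81% after another quantile normalization, 14% to 10.9% after cyclic loess and 11.9% to 11.3% after centring. With MSC-EVs it was 29.9% to 10.1%, and 25.7% to 13.4%, 21.8% to 16.8% and 20.4% to 17%. Each gene had 1 cluster, so a fit over every cluster of a gene gave no other value. Trib3 lay below the median of every array, where a change could hardly be measured.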
